A study of Homo sapiens with 2 samples.

Results

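The WNT ligand genes considered here are WNT2, WNT3, WNT3A, WNT5A, WNT5B, WNT7A, WNT7B, WNT9A, WNT9B and WNT11, 10 genes on 7 chromosomes. They were selected by name and located by their hg19 spans, given in whole kb and widened by 20 kb on each side. The choice was made with earlier results of these data known, and other WNT ligand genes were not analysed. Peaks that overlapped a widened span by at least 1 bp were taken as members, and a peak that met more than 1 widened span went to the nearer gene. In this way 51 of the 46208 peaks in the authors' list belonged to the WNT ligand loci. The peaks mark where chromatin from a V5 ChIP was enriched over input. The ChIP library came from the established human embryonic stem cell line H1 with a V5 tag at its own TET1 gene, and the cells were collected as cardiac progenitors on day 7 of differentiation. The input library came from cardiac progenitors of the same line and day. All of these cells had received 6 µM CHIR99021, an inhibitor of the kinase GSK3 that switches on WNT signalling, until day 2. They then received 5 µM IWP2, an inhibitor of the enzyme that attaches a fatty acid to WNT ligands, from day 3 to day 5. Each group held 1 library, so no value below has a replicate and none carries a test. The genotype entry of both libraries reads wild type while the series text describes the tagged line, and the number of clones is not given in the sources used here. No V5 ChIP of untagged cells was analysed here, so antibody signal from sources other than TET1 cannot be told apart. A peak list holds no expression values, so the cell type could not be checked against its markers.

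WNT ligands are secreted, lipid-modified proteins that bind Frizzled receptors on nearby cells. With LRP5 or LRP6 as co-receptor they stabilise beta-catenin, and through ROR and RYK receptors they act on cell shape and movement without it. In heart development beta-catenin signalling first favours mesoderm and later opposes the cardiac fate, and WNT5A and WNT11 are the ligands best known for acting without beta-catenin in the cardiac lineage. TET1 oxidises methylated cytosine and carries a CXXC domain, which binds DNA rich in unmethylated CpG.

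The stretches of DNA just before the annotated transcription starts are described next. They were not placed on the hg19 peaks, so no overlap with a peak was established. RefSeq promoter windows on GRCh38.p14 were matched by symbol for 8 of the 10 genes, and WNT7B and WNT11 had no entry in the table. The 250 bases before the start are printed for WNT5A, with a peak at the score ceiling at its 5′ end, and WNT5B, with none there. Those of WNT9A and WNT2, the highest and lowest of the other matched genes by 5′ score, are printed too. The table lists more than 1 start for WNT5A and WNT5B, and both are shown. All are written 5′ to 3′ on the strand of the gene, with CpG dinucleotides in capitals.
WNT5A start 1, chr3:55487307-55487556, minus strand: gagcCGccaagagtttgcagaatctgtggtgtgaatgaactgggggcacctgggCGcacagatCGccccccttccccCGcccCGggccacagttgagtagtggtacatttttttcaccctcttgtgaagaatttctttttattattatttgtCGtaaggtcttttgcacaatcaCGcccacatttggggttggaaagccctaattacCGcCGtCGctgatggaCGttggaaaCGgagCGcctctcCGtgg
WNT5A start 2, chr3:55481399-55481648, minus strand: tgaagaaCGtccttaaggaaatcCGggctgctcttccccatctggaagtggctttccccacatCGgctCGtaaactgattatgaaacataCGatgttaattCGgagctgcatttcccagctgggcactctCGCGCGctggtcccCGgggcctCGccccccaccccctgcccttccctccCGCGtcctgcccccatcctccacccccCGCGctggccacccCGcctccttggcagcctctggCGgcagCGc
WNT5B start 1, chr12:1616806-1617055, plus strand: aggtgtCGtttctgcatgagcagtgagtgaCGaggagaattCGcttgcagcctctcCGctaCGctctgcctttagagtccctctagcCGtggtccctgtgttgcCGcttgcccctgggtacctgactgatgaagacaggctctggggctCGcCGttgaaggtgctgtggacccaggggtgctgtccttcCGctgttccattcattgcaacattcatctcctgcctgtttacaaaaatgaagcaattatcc
WNT5B start 2, chr12:1628981-1629230, plus strand: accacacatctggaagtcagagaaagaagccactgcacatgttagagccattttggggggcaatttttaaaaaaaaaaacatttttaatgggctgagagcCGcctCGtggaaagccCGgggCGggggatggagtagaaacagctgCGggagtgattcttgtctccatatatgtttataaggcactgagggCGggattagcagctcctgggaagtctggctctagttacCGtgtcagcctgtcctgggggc
WNT9A start 1, chr1:227947933-227948182, minus strand: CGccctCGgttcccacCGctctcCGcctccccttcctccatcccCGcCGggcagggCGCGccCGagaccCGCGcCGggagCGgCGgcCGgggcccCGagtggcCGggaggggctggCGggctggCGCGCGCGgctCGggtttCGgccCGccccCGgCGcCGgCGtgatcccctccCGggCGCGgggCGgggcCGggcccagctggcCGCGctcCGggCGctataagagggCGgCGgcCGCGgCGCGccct
WNT2 start 1, chr7:117323059-117323308, minus strand: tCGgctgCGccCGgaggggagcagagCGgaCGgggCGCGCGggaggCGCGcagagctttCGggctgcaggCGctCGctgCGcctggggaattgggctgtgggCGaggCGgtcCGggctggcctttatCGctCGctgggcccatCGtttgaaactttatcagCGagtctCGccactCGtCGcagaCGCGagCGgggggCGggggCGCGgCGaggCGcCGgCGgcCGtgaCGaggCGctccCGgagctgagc

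TET1-V5 peaks were present at the 5′ end of 9 of the 10 WNT ligand genes, and the strongest of these lay at WNT5A and WNT11. The 5′ end was taken as the 1 kb bin in which the span begins, by strand, with 1 kb added on each side, because the spans are known to the kb. Over the genome, 8.48% of windows of that size, 3 kb, held a peak. That background counts all sequence and not promoters, since no hg19 annotation of other genes was used. The authors' score, whose unit no header states, starts at 50 and piles up at 3100. Scores of 3100 or more are called the ceiling here. The ceiling was reached at the 5′ end by 2 genes, against 0.686% of the 3 kb windows. The exception without a peak at its 5′ end was WNT5B, for which only the start of the span was considered and not its second RefSeq start.

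**Figure D1:**
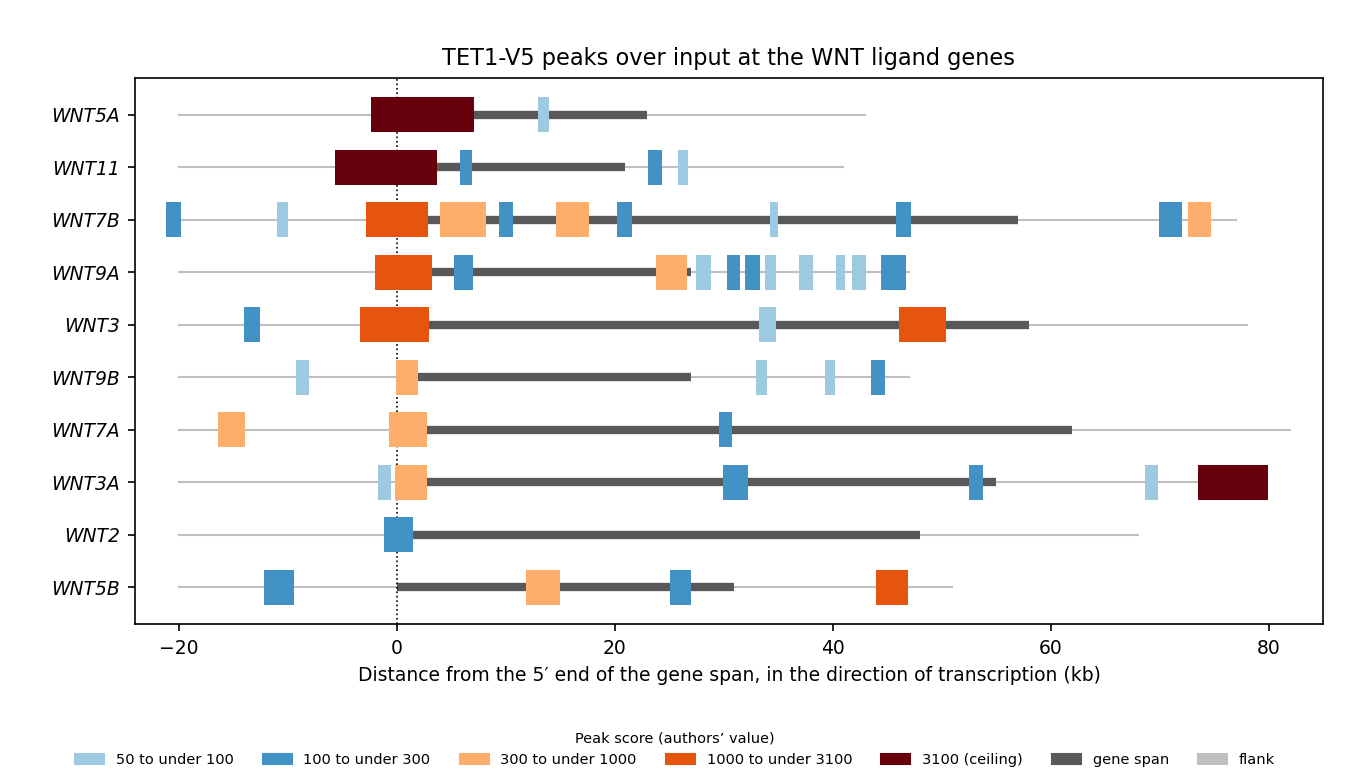
Positions of the 51 peaks along the 10 WNT ligand genes, drawn by distance in kb from the 5′ end of each span in the direction of transcription, with bar colour giving the class of the authors' score. Genes are ordered by the score of the peak at the 5′ end. WNT5A and WNT11 carry broad ceiling peaks over the start, and WNT5B has none within 9 kb of it.

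WNT5A, a ligand that acts mainly without beta-catenin and is needed for outgrowth of the embryonic axis and the outflow tract in the mouse, had 2 peaks. The peak at its 5′ end lay on chromosome 3 from 55514883 to 55524370, was 9488 bp wide and stood at 3100. It reached from 2.37 kb before the start to 7.12 kb inside the gene, so most of it covered the gene itself. Across the list 99.6% of peaks were narrower. The 2 starts printed above lie 5.91 kb apart on GRCh38, a spacing shorter than the stretch of the peak inside the gene on hg19, although no position was carried from one build to the other. The remaining WNT5A peak lay 12.95 to 14.00 kb inside and scored 84.87. No further peak was found in either flank, and the nearest ones outside lay 81.9 kb upstream and 328 kb downstream of the span.

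WNT11, which acts mainly without beta-catenin and promotes cardiac specification in frog embryos, had the other ceiling peak at a start. It spanned 9364 bp on chromosome 11 from 75914317 to 75923680. In contrast to the WNT5A peak, it extended farther upstream, from 5.68 kb before the start to 3.68 kb inside. Together with that peak WNT11 had 4, and the other 3 scored 103.58 inside the gene and 202.23 and 77.47 in the downstream flank. The 5′ peak made up 74.3% of the summed width of the WNT11 peaks, and the one at WNT5A made up 90.1% of that of its gene.

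WNT5B, the close relative of WNT5A, differed from it in where its peaks lay. None of its 4 peaks fell at the 5′ end. The nearest on the upstream side ended 9.37 kb before it, and the nearest inside the gene began 11.9 kb after it. The inner peak lay on chromosome 12 from 1737915 to 1740969, was 3055 bp wide and scored 536.85. It covered 11.9 to 14.97 kb from the start of the hg19 span, while the second RefSeq start of WNT5B lies 12.2 kb inside the first on GRCh38. These distances are given side by side, from different builds. The peak in the upstream flank scored 249.36, the one nearer the 3′ end 168.15, and the highest, 1904.75, lay in the downstream flank 12999 bp past the gene. ADIPOR2 is the next protein-coding gene on that side by gene order. Widening the start bin by 4 kb on each side could not reach either of the nearest peaks, so it adds nothing to these distances.

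WNT3 and WNT3A are beta-catenin ligands, and Wnt3 is required in the mouse for the primitive streak and mesoderm. At the 5′ end of WNT3 the peak was 6328 bp wide and scored 1161.77, lying on chromosome 17 from 44894032 to 44900359. Yet the highest score of the locus, 2706.14, was deep in the gene, 46.1 to 50.4 kb from the start, in a peak of 4307 bp from 44846592 to 44850898. The other WNT3 peaks scored 87.58 inside the gene and 208.55 upstream.

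At WNT3A the 5′ peak, on chromosome 1 from 228193880 to 228196804, was weaker, with a score of 455.41 and a width of 2925 bp. A smaller peak of 1164 bp and 73.89 lay just before it. WNT3A had 6 peaks in all, and the highest stood at the ceiling, 6433 bp wide, from 228267501 to 228273933. That peak began 18.5 kb past the gene and only its first 1500 bp overlapped the widened span. ARF1 is the next protein-coding gene on that side by gene order, and no hg19 position of ARF1 was used. Taking peaks by midpoint left it out, which brought the ceiling peaks of all WNT loci to 2, against 3 by overlap.

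WNT7B and WNT9A, known in the mouse for lung and vascular development and for joint formation, held the most peaks, 11 each. The 5′ peak of WNT7B, on chromosome 22 from 46370132 to 46375826, was 5695 bp wide and scored 2134.09. That of WNT9A, on chromosome 1 from 228132705 to 228137993, was 5289 bp wide and scored 2070.07. The remaining peaks were laid out differently. WNT7B carried 7 peaks within its span, the highest of the inner ones being 614.03 (4235 bp) at 3.98 to 8.22 kb from the start and 489.02 (3059 bp) at 14.6 to 17.7 kb. WNT9A carried 3 within its span and 8 in the downstream flank, where scores ran from 63.92 to 185.94 and widths from 837 to 2302 bp.

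WNT7A, which patterns limb and reproductive tract in the mouse, and WNT9B, which induces kidney tubules in the mouse, had 5′ peaks of middling score. The WNT7A peak, on chromosome 3 from 13919167 to 13922720, was 3554 bp wide and scored 602.13. The WNT9B peak, on chromosome 17 from 44927910 to 44929973, was narrower, 2064 bp, at a similar 609.55. WNT7A had 2 further peaks, of 183.69 inside the gene and 306.14 upstream. The other 4 of WNT9B scored 60.94 to 248.94, all in the flanks.

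WNT2, which marks cardiac mesoderm and the inflow region of the mouse heart, stood at the low end. Its single peak, on chromosome 7 from 116962512 to 116965161, was 2650 bp wide and scored 237.04. That is above 57.4% of the peaks in the list. The nearest other peaks lay 155 kb upstream and 320.9 kb downstream of the WNT2 span.

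**Figure D2:**
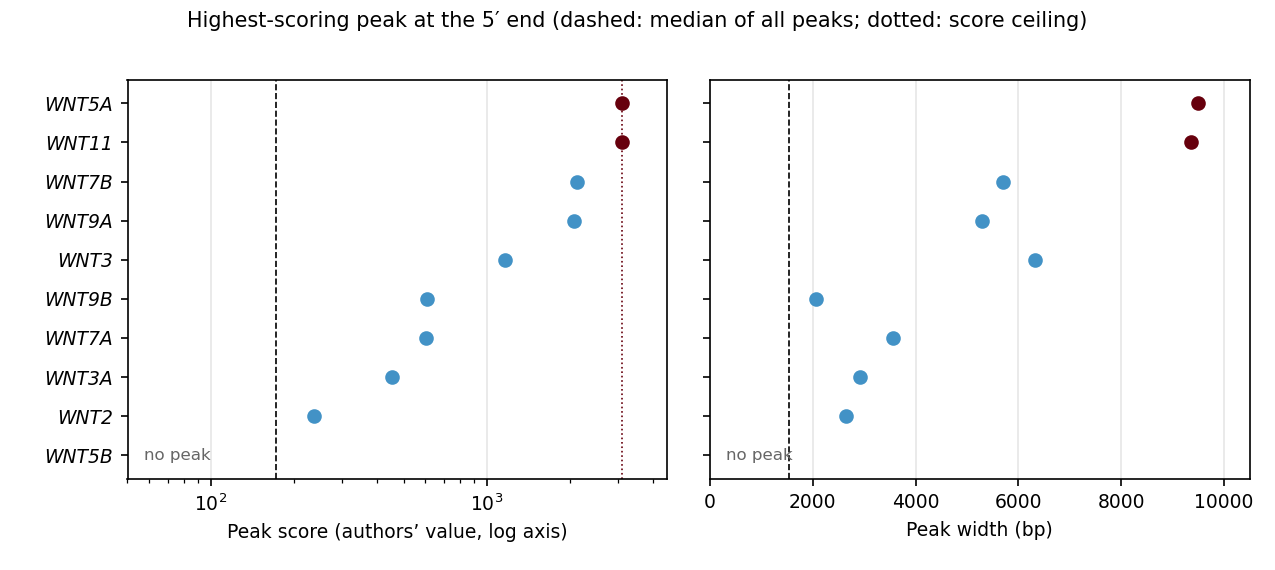
Score on a log axis (left) and width in bp (right) of the highest-scoring peak at the 5′ end of each WNT ligand gene, 1 library. Points run from 237.04 at WNT2 to the ceiling at WNT5A and WNT11, all to the right of the median of the whole list, and WNT5B has no point.

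Ordered by the score at the 5′ end, the genes ran WNT5A and WNT11 (tied at the ceiling), WNT7B, WNT9A, WNT3, WNT9B, WNT7A, WNT3A and WNT2. Without replicates it is not known which neighbours in this order differ beyond the spread between libraries. WNT7B and WNT9A, and likewise WNT9B and WNT7A, had close scores. Within named relatives the 5′ scores were 3100 at WNT5A with no peak at WNT5B, 2134.09 at WNT7B and 602.13 at WNT7A, 2070.07 at WNT9A and 609.55 at WNT9B, and 1161.77 at WNT3 and 455.41 at WNT3A. The ligands that act mainly without beta-catenin, WNT5A, WNT5B and WNT11, thus held both the highest 5′ peaks and the gene without one. For WNT5B this holds for the start of the span only. Its second RefSeq start, 12.2 kb inside on GRCh38, was not scored, and a peak of 536.85 covered 11.9 to 14.97 kb on hg19.

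The 5′ peaks were the main peaks of most loci. At 7 of the 10 genes the highest-scoring peak lay at the 5′ end, the exceptions being WNT3, WNT3A and WNT5B. At 8 the widest peak lay there, the exceptions being WNT3A and WNT5B. WNT2, with its single peak, enters both counts by default, and no such share over other genes was available. The 10 peaks at 5′ ends had a median score of 885.7 (73.89 to 3100) and a median width of 4422 bp, against 174.33 (53.18 to 3100) and 1354 bp for the other 41. They made up 39.2% of the summed width of all 51. Outside the 5′ ends, 17 peaks lay in gene spans with a median score of 183.69, 6 in upstream flanks with 191.4 and 18 in downstream flanks with 103.1. Of the 18 downstream peaks 8 belonged to WNT9A, and 9 scored under 100.

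As a whole the WNT loci held peaks with scores near those of the list, and more peaks per length than the rest of the list. The median score was 202.23 over the 51 peaks and 172.2 over the list, and 15 of the 51 (29.4%, 95% Wilson interval 18.7% to 43.0%) scored under 100, against 32.9% of the list. At the ceiling stood 3 of the 51 (5.88%, 2.02% to 15.9%), against 4.69% of the list, a share near the background. Peaks of 5 kb or wider numbered 6 (11.8%, 5.51% to 23.4%), against 3.20% of the list, and 5 of the 6 were the 5′ peaks of WNT5A, WNT11, WNT3, WNT7B and WNT9A. The loci spanned 800 kb and held 6.38 peaks per 100 kb (exact 95% Poisson interval 4.75 to 8.38), against 1.89 over the rest of the list. Peaks covered 14.7% of the loci and 3.68% of the rest. These intervals cover counting error only, and neighbouring peaks are not independent. The rest includes long gene-poor stretches, and other genes could not be placed on hg19 here.

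**Figure D3:**
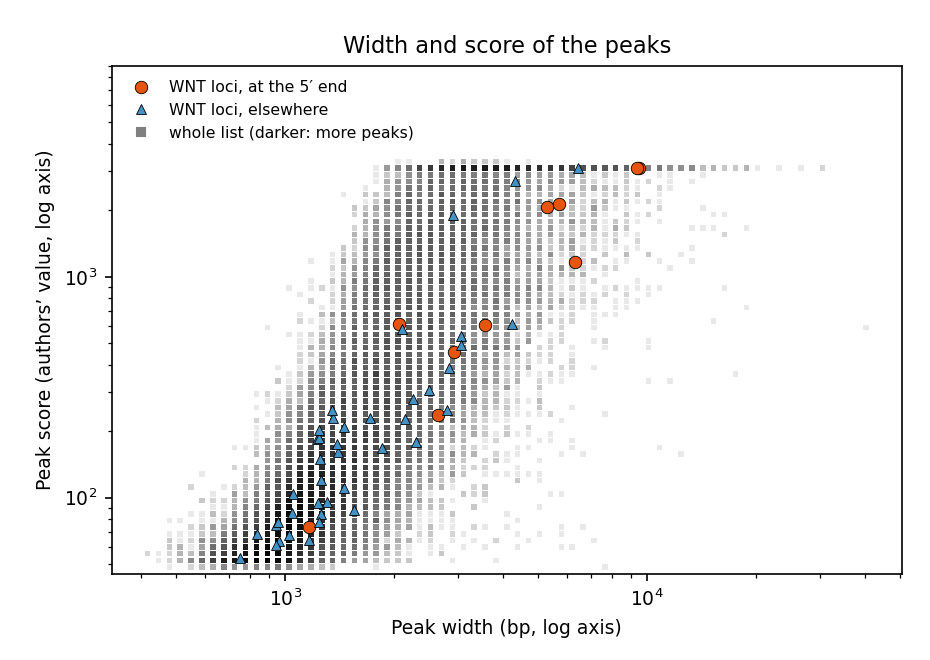
Width in bp and authors' score of the peaks on log axes, with the 10 peaks at WNT 5′ ends as circles, the other 41 WNT peaks as triangles and the whole list as grey squares. Most circles lie on the wide side of the grey cloud for their score, some well inside it, and WNT9B (2064 bp, 609.55) does not.

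Of the 9 highest-scoring peaks at WNT 5′ ends, 8 were wider than more than 50% of the peaks of like score. Each was set beside the peaks of the list whose score lay within 10% of its own, or beside all ceiling peaks, a measure chosen after the plot of width against score had been seen. The share of these peaks that were narrower was 97.7% for WNT3, 95.1% for WNT5A, 94.9% for WNT11, 93.3% for WNT7B, 91.7% for WNT2, 91.1% for WNT9A, 87.7% for WNT7A and 81.5% for WNT3A. WNT9B went the other way with 38.7%. The median over these 9 peaks was 91.7%, against 53.1% over the 41 WNT peaks elsewhere, of which 22 were above 50%. A wide peak meets a 3 kb window more readily than a narrow one, and peaks at other promoters were not compared. The tenth peak at a 5′ end, the smaller WNT3A peak of 1164 bp scoring 73.89, is in neither group and had 73.3%.

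The genes differed widely in how many peaks lay around them. Windows of the same width as each widened span were laid every 10 kb over the genome, outside peak-free intervals over 1 Mb. All peaks touching the widened span were counted for this, so WNT9B had 6. The 11 peaks of WNT9A were reached by 1.01% of windows and the 11 of WNT7B by 2.85%. On their own chromosomes these shares were 1.00% on chromosome 1 for WNT9A and 13.3% on chromosome 22 for WNT7B, where the median window held 4 peaks. At the other end, WNT2 with 1 peak was matched or passed by 57.0% of windows. WNT5A, with 2 peaks in a shorter span, lay above its window median of 0 and was matched or passed by 24.4%. In all, 9 of the 10 genes had more peaks than the median window of their width, and WNT2 equalled it. Those medians were 0 or 1, and the windows cover all sequence and are not centred on genes. The share of all windows above the median is not given here, and other genes were not compared. Chromosome 17 is also dense: the 4 peaks of WNT3 were reached by 16.1% of all windows but by 43.5% of those on its own chromosome, and the 6 at WNT9B by 5.78% and 19.9%. The number of peaks did not follow the 5′ score: WNT5A, at the ceiling, had 2 peaks, and WNT9A, at 2070.07, had 11. By the share of the locus covered, the order was WNT9A with 30.5%, WNT7B 23.9%, WNT11 20.7%, WNT5A 16.7% and WNT5B 14.9%. Then came WNT3 with 13.9%, WNT9B 11.9%, WNT3A 10.8%, WNT7A 7.13% and WNT2 3.01%.

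**Figure D4:**
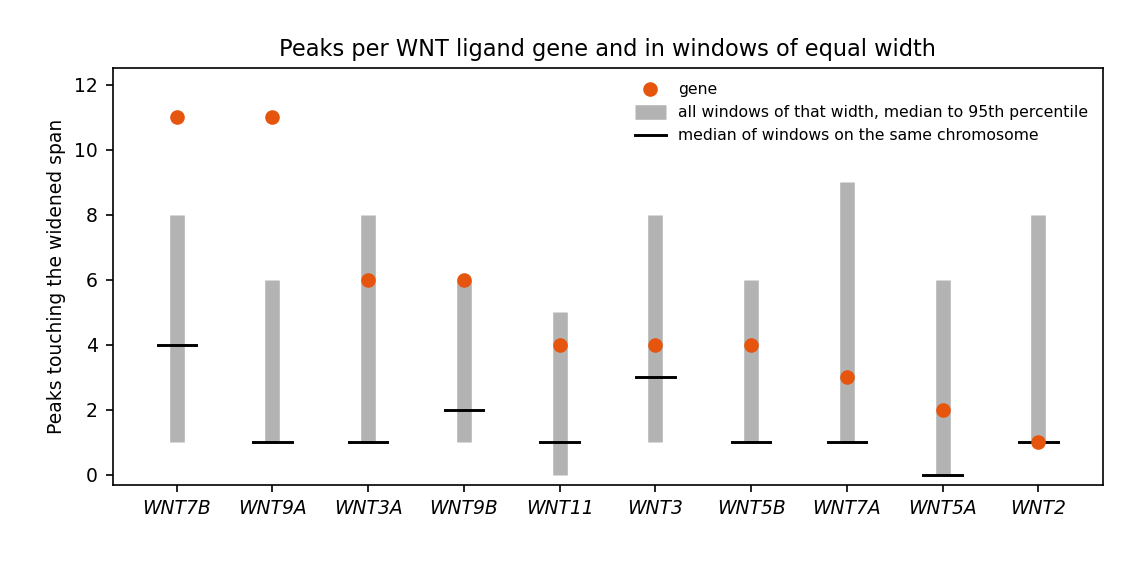
Number of peaks touching each widened WNT span (points), with grey bars from the median to the 95th percentile of all windows of the same width and black lines at the median of windows on the same chromosome. WNT7B and WNT9A, with 11 peaks each, lie above their bars, and WNT2, with 1, lies at the median.

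The genes form 2 head-to-head pairs, WNT3 with WNT9B and WNT9A with WNT3A, whose starts face each other. The starts are 31 kb apart for WNT3 and WNT9B by the hg19 spans and 32.9 kb by the GRCh38 promoter table, and 58 kb and 59.1 kb for WNT9A and WNT3A, so the spans fit the table to within 2 kb. In both pairs the gene on the minus strand had the higher and wider 5′ peak. Between the starts of WNT3 and WNT9B lay 2 peaks, of 208.55 and 94.10, beside a list median of 172.2. Between those of WNT9A and WNT3A lay the small 73.89 peak next to WNT3A and 1 peak of 267.74 on chromosome 1 from 228159335 to 228161417, which fell outside both widened spans.

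Some peaks lay close to the limits of the loci. Besides the ceiling peak past WNT3A, a peak of 174.33 upstream of WNT7B crossed the outer edge and overlapped it by 222 bp. Just outside, 1110 bp beyond the upstream flank of WNT5B, was a ceiling peak of 3555 bp on chromosome 12 from 1701337 to 1704891, on the side where FBXL14 is the next protein-coding gene by gene order. A peak of 1081.41 lay 2834 bp beyond the downstream flank of WNT11.

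Among the 8 genes with a promoter window, the CpG content before the start did not order the 5′ scores. WNT11 and WNT7B, with 5′ scores of 3100 and 2134.09, had no window and are missing from this comparison. The windows were not placed on the peaks. The 10 windows of the WNT genes had a median of 27.5 CpG in 250 bases, against 11 over all 35116 promoter windows of the table (quartiles 3 and 23). WNT9A, with 44 CpG, had a 5′ score of 2070.07. WNT2 and WNT3A, with 38 each, had the lowest 5′ scores, 237.04 and 455.41. WNT9B had 31, WNT7A 29 and WNT3 26. WNT5A, at the ceiling, had 14 before its first start and 18 before its second, above 55.2% and 63.2% of all windows. The fewest were those of WNT5B, 10 before its first start and 7 before its second. No peak lay at the 5′ end of its span. The second start lies 12.2 kb inside on GRCh38, and a peak scoring 536.85 covered 11.9 to 14.97 kb on hg19.

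**Figure D5:**
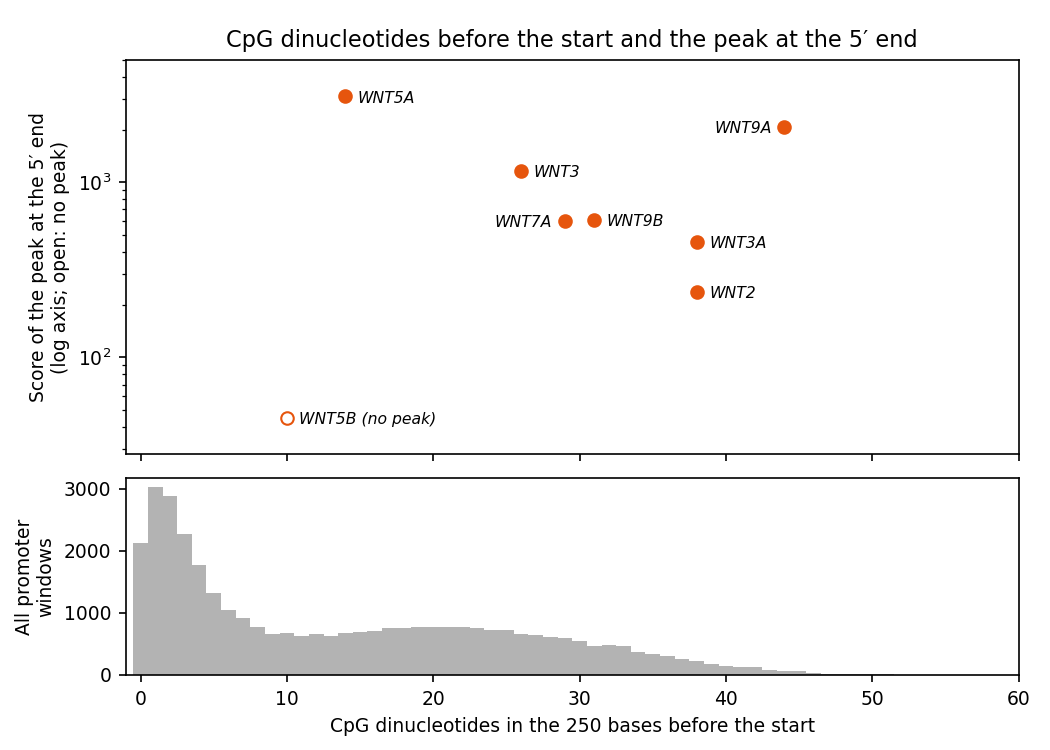
Number of CpG dinucleotides in the 250 bases before the first listed start of the 8 matched WNT genes against the authors' score of the peak at the 5′ end, on a log axis, with the count of all promoter windows per CpG number beneath. WNT5A reaches the ceiling with 14 CpG, WNT2 has 237.04 with 38, and the open circle marks WNT5B, which has no peak.

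Short motifs were searched on both strands of the same 250 bases. The GC box GGGCGG, bound by SP factors, was in 8 of the 10 WNT windows and in 42.6% of all windows. It was absent from the second start of WNT5A and the first of WNT5B, and WNT9B held 11 copies, counting overlapping ones. The TATA box TATAAA was in 1 WNT window, the second start of WNT5B, and in 10.7% of all. Neither CTTTGAT, bound by TCF/LEF factors, nor AGATAA, bound by GATA factors, was in any of the 10 WNT windows. They were in 2.26% and 9.17% of all windows. A match describes the letters and is not a binding site, and a missing one says only that these letters are not in this window.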

How the data were processed

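Chromatin of 1 V5 ChIP library and 1 input library was sequenced. BWA 0.7.17 aligned the reads and the build is hg19, as recorded per the submitters' processing notes. The deposited list gives the position and a score for each peak, and per the peak names in the file the peaks were called with MACS. The version, settings and unit of the score deposited by the authors were not given in these sources, and the score describes and ranks peaks within this list. The most frequent score, 3100, was taken as the ceiling, and 135 peaks lie above it. Depth is unknown.

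Spans came from the rule for the genes, and the WNT members and lists were chosen with earlier results of these data known. All 10 genes are named. Strands were written from general knowledge and checked against the promoter table for the 8 genes it lists. Peaks, windows and promoter sequences were counted with pandas 2.3.3, numpy 2.4.6 and scipy 1.17.1 under Python 3.11.15, and the assignment was tested on simulated data. All 10 symbols matched the GRCh38 gene table, which gave names of neighbours and no position. Other WNT ligands, receptors and WNT processing genes have no hg19 span here and were not analysed. Positions are counted from 1. Alternatives were other flanks, score thresholds, merging, midpoints and other start windows.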

Additional observations from a re-analysis of the deposited data

How the results depend on the processing

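The 6 results were recomputed under 38 alternatives, of which 33 gave a value within 1.5 times the one reported (for peaks per 100 kb, within its counting interval) and 5 did not. The number of peaks, 51, was 26 without flanks, 86 with flanks of 50 kb and 30 in the upper 50% of the list by score. Peaks per 100 kb, 6.38, were 4.50 for scores of 100 or more and 3.75 in the upper 50%. These follow from the shorter or longer spans and the fewer peaks kept. The same thresholds remove peaks from the whole list too, 32.9% of which scored under 100. Its density under them is not given here. The count of 9 genes with a 5′ peak, and of 2 with one at the ceiling, was the same under all 5 alternatives run for it. Most of these could not have lowered either count. The score thresholds lay below 237.04, the lowest of the 9 scores, and merging keeps the highest score. A wider start bin cannot lose a peak. Only leaving out the widening of the start bin could have done so. Limits are the single library per group, the unknown depth, spans known to the kb and the lack of hg19 annotation for other genes. No paired analysis was possible because there is 1 library per group.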
